A study of Homo sapiens with 4 samples.

Results

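Germ cells are the cells that give rise to sperm and eggs, and 10 of their genes were followed here through RNA-seq of NT2 cells (also called NTERA-2), a human embryonal carcinoma line derived from a germ cell tumour. They were chosen by name for their roles, as genes of primordial germ cells and of the piRNA pathway, and make up 10 of the 62696 genes in the deposited tables. They are TFAP2C, PRDM1, NANOS3, DND1, KIT, DDX4, DAZL, PIWIL1, PIWIL2 and MAEL. The study set a knockdown of HYDIN2 against an empty vector. HYDIN2 is a pseudogene copied in part from HYDIN, a gene of motile cilia. All 4 libraries came from NTERA-2 cells grown in the same serum-containing medium: 1 with an empty vector, its genotype labelled wild type and called the control library here, and 3 with the genotype HYDIN2 knockdown, replicates 1, 2 and 3. The sources used here do not give the knockdown's method or duration, nor say if the replicates came from separate cultures or clones, so the spread between them may be technical.

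Primordial germ cells are set aside in the early embryo, where the transcription factors TFAP2C and PRDM1 act with SOX17 to start the germ cell programme in human cells. KIT, NANOS3 and DND1 then keep the cells alive and migrating, and DAZL and DDX4 come on as they settle in the gonad. Later germ cells make piRNAs, small RNAs carried by PIWI proteins such as PIWIL1 and PIWIL2, which guide the silencing of transposons. Embryonal carcinoma cells are pluripotent tumour cells that share part of this programme, while seminoma, another germ cell tumour, keeps more of it.

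The depth and the labels were checked before the genes were compared. The control library held 25181737 counts, replicate 1 held 62904698, replicate 2 held 61627449 and replicate 3 held 28552070. Levels are given as CPM, the count relative to its library's total after TMM scaling, which evens out differences in composition. A count of 0 was taken to allow up to 3 read pairs, or 6 counts, which is 0.0964 to 0.25 CPM depending on the library. HYDIN2, the targeted gene (ENSG00000276975.4), stood at 0.50 CPM in the control library and at 2.41, 1.88 and 0.352 CPM in the libraries labelled knockdown replicates 1, 2 and 3. It was thus higher in replicates 1 and 2 than without knockdown, by 4.82 times (95% counting interval 2.11 to 13.5) and 3.75 times (1.62 to 10.7). In replicate 3 its ratio was 0.704 (0.18 to 2.7). The targeted gene thus did not bear out the labels, and every direction below is from the control library to a library labelled knockdown. HYDIN2 had only 12, 150, 112 and 11 counts in the control library and replicates 1, 2 and 3. HYDIN had the same order of levels, at 5.62, 8.67, 8.06 and 4.26 CPM. Whether reads of HYDIN were counted for HYDIN2 was not tested. Replicates 1 and 2 were also far closer to each other than to replicate 3. Of 15880 genes, 0.302% lay at least 2-fold apart between replicates 1 and 2, against 21.6% and 22.9% between replicate 3 and each of them. The embryonal carcinoma markers were all present: all 10 had a mean above 1 CPM, with POU5F1 at 42.8, NANOG at 502, SOX2 at 279 and LIN28A at 2840 CPM in the control library.

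With 1 control library there is no replicate check on the control side, and no p-value per gene is given. A gene was counted as having risen or fallen when its log2 CPM lay 1 or more (2-fold) away from the control library on the same side in replicates 1, 2 and 3 alike. This rule took in a gene when the average of the 2 group means was at least 1 CPM, which 15880 genes reached. Among them 580 rose (3.65%) and 432 fell (2.72%), a split that became 734 and 312 when libraries were scaled by total counts alone. Of the 10 germ cell and piRNA genes, 7 entered the rule, and NANOS3, DND1 and DDX4 were too low. Of these 7, PRDM1 rose and none fell. DAZL and PIWIL1 entered only through their levels in the labelled knockdown libraries. All intervals quoted are 95% intervals for counting error only, computed on counts divided by 2 because most counts were even, as if each read of a pair had been counted.

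Several of these genes were high in replicates 1 and 2 and lower in replicate 3. TFAP2C, PRDM1, DAZL and PIWIL1 were each at least 2-fold above the control library in both replicates 1 and 2. The share over all genes tested was 9.54%, but the count of 4 cannot be read against it, because DAZL and PIWIL1 reached the minimum level only through these replicates. None of the 7 was 2-fold lower in both, against 5.5% of all genes. The same 4 were at least 2-fold lower in replicate 3 than in replicates 1 and 2 (13.1% of all genes), and none was 2-fold higher there (6.2% of all genes). Replicates 1 and 2 stood at least 2-fold above both other libraries in 3.93% of all genes. The same limit holds for these counts. In replicate 3, TFAP2C, DAZL and PIWIL1 were below the control library in CPM, and PRDM1 was above it. HYDIN2 itself had this arrangement. Its level and those of the 4 genes were read in the same libraries, and whether they are linked was not tested. In bulk RNA, a change in the number of cells of one type and a change in RNA per cell cannot be told apart.

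**Figure D1:**
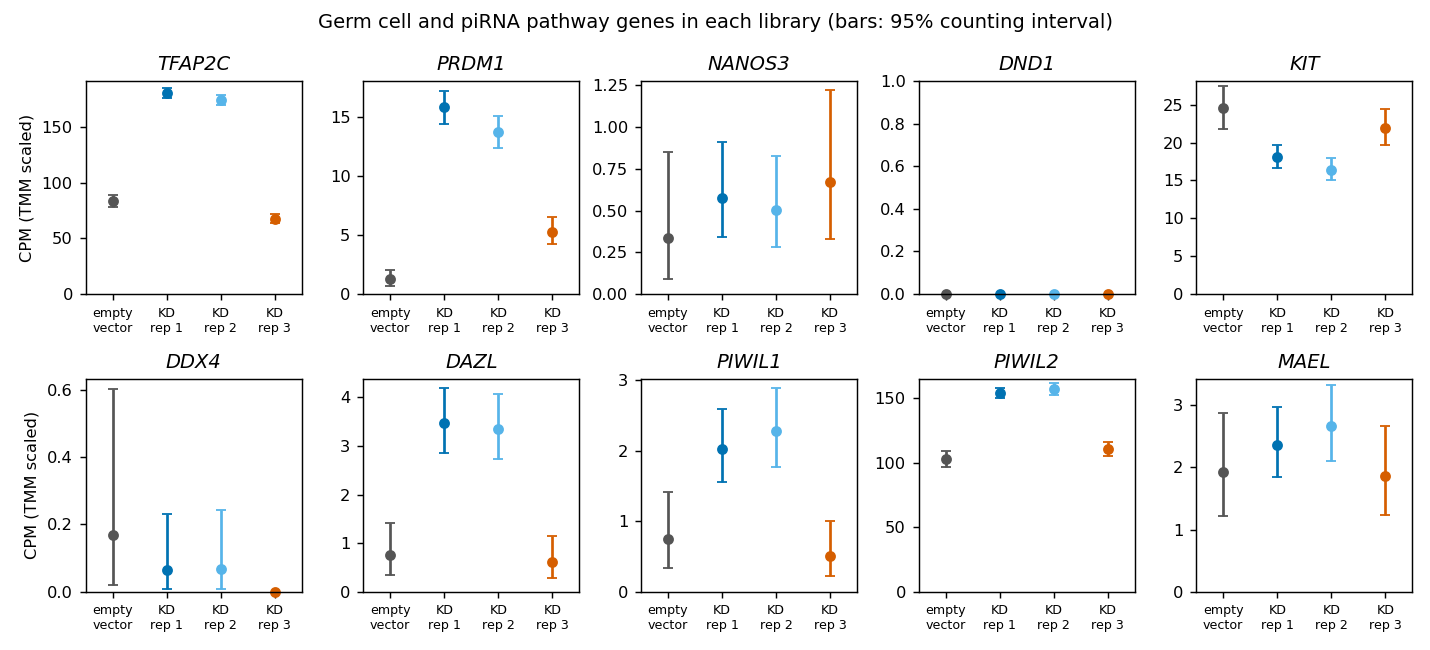
Levels of the 10 genes in the 4 libraries, in TMM-scaled CPM on a separate linear axis for each gene, with 95% counting intervals as bars, none drawn at 0 counts (KD rep: library labelled knockdown replicate). TFAP2C, PRDM1, DAZL and PIWIL1 are highest in replicates 1 and 2, PIWIL2 is the most abundant with TFAP2C, and DND1 is at 0 in every library.

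PRDM1 encodes BLIMP1, a zinc finger repressor that shuts down somatic genes in primordial germ cells and also acts in plasma cells and other lineages. The gene (ENSG00000057657.17) lies on chromosome 6 (GRCh38, 106086320 to 106109939, plus strand). It had 30 counts, or 1.25 CPM, in the control library and 15.8, 13.7 and 5.28 CPM in replicates 1, 2 and 3. Every labelled knockdown library was above the control library, and replicate 3 was the lowest of them. The ratios to the control library were 12.6 (7.58 to 22.7), 11 (6.56 to 19.7) and 4.23 (2.42 to 7.89). Its log2 difference averaged 3.02 ± 0.85 (SD, n = 3), and the mean level was 11.6 ± 5.55 CPM (SD, n = 3). PRDM1 is the one gene here whose rise exceeded 2-fold in every library. Replicates 1 and 2 exceeded replicate 3 by 2.99 (2.36 to 3.82) and 2.59 (2.04 to 3.32) times.

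TFAP2C, the AP-2 gamma transcription factor, works upstream of the germ cell programme and is also known from trophoblast. The gene (ENSG00000087510.7) lies on chromosome 20 at 56629302 to 56639283, plus strand. Its level was 83.4 CPM in the control library and 180, 174 and 67.4 CPM in replicates 1, 2 and 3. The groups overlapped, since replicate 3 lay below the control library and replicates 1 and 2 lay above it. The ratios were 2.16 (2.02 to 2.32), 2.09 (1.95 to 2.24) and 0.808 (0.74 to 0.881). The first 2 ratios stayed above 2 under every scaling tried. With total counts scaling the ratio in replicate 3 was 0.927 (0.849 to 1.01), an interval that includes 1. The mean log2 difference, 0.62 ± 0.81 (SD, n = 3), was smaller than its spread, and without replicate 3 it was 1.09. SOX17, the partner of both factors in human primordial germ cells, did not reach the minimum level, with 0.167, 0.193, 0.201 and 0.832 CPM in the control library and replicates 1, 2 and 3.

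NANOS3 and DND1 encode RNA-binding proteins that protect migrating germ cells from death. NANOS3 (ENSG00000187556.8, chromosome 19, 13862063 to 13880757, plus strand) had 8, 36, 30 and 21 counts in the control library and replicates 1, 2 and 3. These are 0.333, 0.578, 0.503 and 0.672 CPM, with the control library lowest. The counting intervals of the 3 ratios all included 1, the widest being 0.59 to 8.75 in replicate 3, so a difference was not detectable at this depth. DND1 (ENSG00000256453.2, chromosome 5, 140670794 to 140673586, minus strand) had 0 counts in all 4 libraries. This allows up to 0.25, 0.0964, 0.101 and 0.192 CPM, for reads that the counting could assign to it. All 1605 exon bases of DND1 (100%) lie in exons of WDR55 on the opposite strand, and 92.5% of its 50-base stretches also occur in other genes, among them the pseudogene DND1P1, which had 0 counts as well. WDR55 had 318, 445, 425 and 363 counts. Whether reads of DND1 were left uncounted or assigned elsewhere was not tested.

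KIT is the receptor tyrosine kinase for KITLG (stem cell factor), which supports the survival and migration of primordial germ cells. The gene (ENSG00000157404.17) lies on chromosome 4 at 54657918 to 54740715, plus strand. Its level was 24.5 CPM in the control library and 18.1, 16.4 and 21.9 CPM in replicates 1, 2 and 3. Every labelled knockdown library was below the control library, as were 34.2% of all genes tested. The ratios were 0.74 (0.641 to 0.855), 0.67 (0.578 to 0.776) and 0.895 (0.764 to 1.05), and the last interval includes 1. With total counts scaling the ratio in replicate 3 was 1.03 (0.877 to 1.2), so the place of KIT below the control library there depended on the scaling. Its log2 difference averaged -0.39 ± 0.21 (SD, n = 3). KITLG, named here as the ligand of KIT, stood at 19.9, 10.2, 10.0 and 12.8 CPM, with a mean log2 difference of -0.86 ± 0.19 (SD, n = 3). Neither passed the 2-fold rule.

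DAZL is an RNA-binding protein that controls translation as germ cells commit to their fate in the gonad. The gene (ENSG00000092345.14) lies on chromosome 3 at 16586792 to 16670306, minus strand. It had 18, 216, 200 and 19 counts, or 0.75, 3.47, 3.35 and 0.608 CPM, in the control library and replicates 1, 2 and 3. Replicate 3 and the control library were both low, so the groups overlapped. The ratios were 4.63 (2.35 to 10.4), 4.47 (2.26 to 10.1) and 0.811 (0.291 to 2.28). Its log2 difference averaged 1.32 ± 1.39 (SD, n = 3) and was 2.12 without replicate 3. DDX4, the VASA helicase of established germ cells (ENSG00000152670.19, chromosome 5, 55738017 to 55817157, plus strand), had 4, 4, 4 and 0 counts. These counts lie near the floor in every library, and the intervals of all 3 ratios included 1.

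Among the PIWI proteins, PIWIL2 was abundant and PIWIL1 scarce. PIWIL1 (ENSG00000125207.7, chromosome 12, 130337887 to 130372637, plus strand), the partner of piRNAs in later male germ cells, had 18, 126, 136 and 16 counts. These are 0.75, 2.02, 2.28 and 0.512 CPM in the control library and replicates 1, 2 and 3. The groups overlapped, with replicate 3 lowest. The ratios were 2.7 (1.34 to 6.17), 3.04 (1.51 to 6.93) and 0.683 (0.229 to 1.99), and the mean log2 difference was 0.80 ± 1.14 (SD, n = 3), or 1.46 without replicate 3. PIWIL2 (ENSG00000197181.12, chromosome 8, 22275297 to 22357563, plus strand), which acts in transposon silencing from fetal germ cells on, was at 103, 154, 157 and 111 CPM. All labelled knockdown libraries were above the control library, as for 30.1% of all genes tested, a group that among the 7 genes held PRDM1 and PIWIL2. The ratios of PIWIL2 were 1.5 (1.41 to 1.6), 1.53 (1.44 to 1.63) and 1.08 (1 to 1.16), and its mean log2 difference of 0.44 ± 0.28 (SD, n = 3) did not pass the rule. After removal of trends on transcript length and GC content, the log2 difference of PIWIL2 in replicate 3 was -0.23, so it no longer pointed the same way in every library.

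MAEL encodes maelstrom, a protein of the germ granule that takes part in piRNA-guided silencing. The gene (ENSG00000143194.13, chromosome 1, 166975582 to 167022214, plus strand) stood at 1.92, 2.36, 2.66 and 1.86 CPM in the control library and replicates 1, 2 and 3. Its groups overlapped and the intervals of all 3 ratios included 1, the highest ratio being 1.39 (0.865 to 2.32) in replicate 2. The mean log2 difference was 0.24 ± 0.26 (SD, n = 3).

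**Figure D2:**
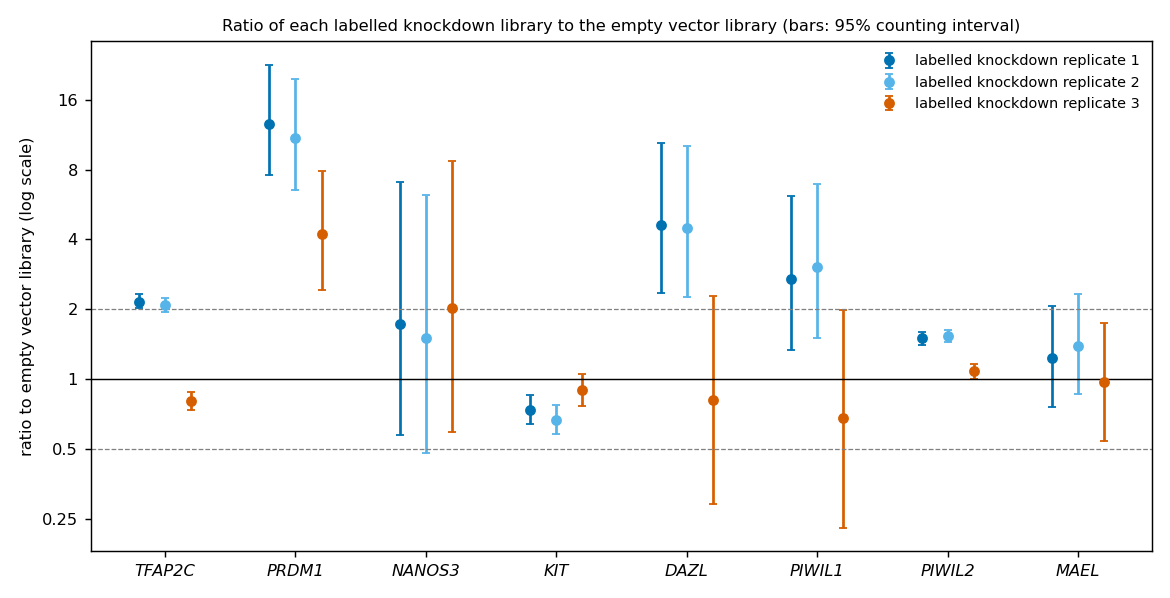
Ratio of each labelled knockdown library to the control library for 8 of the genes, on a log axis, with 95% counting intervals as bars and dashed lines at 2-fold (DND1 and DDX4, at or near 0 counts, are not drawn). Only PRDM1 lies above the upper dashed line in every library, from 4.23 to 12.6, while for TFAP2C, DAZL and PIWIL1 replicate 3 lies below 1.

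As a check with a fitted model, edgeR's quasi-likelihood test was run on all 4 libraries. It called 0 of 26029 genes (0%) at an adjusted p of 0.05, and 3023 had an unadjusted p under 0.05. Of the 8 germ cell and piRNA genes it could fit, none was called, and PRDM1 alone had an unadjusted p under 0.05. DESeq2's Wald test called 253 genes, PRDM1 among them, and limma voom called 0. Each tool estimates its spread within replicates 1, 2 and 3 alone, so the test sets 1 library against that spread.

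Scaled by length, as CPM per kb of exon, the levels of the 10 genes could be ordered. In the control library the order was TFAP2C at 27.8, PIWIL2 at 17.9, KIT at 4.4, MAEL at 0.609, NANOS3 at 0.337, DAZL at 0.207, PRDM1 at 0.196, PIWIL1 at 0.142, DDX4 at 0.0435 and DND1 at 0. The first 3 genes had counting intervals apart from their neighbours', whereas from MAEL downwards every gene's interval overlapped that of the next. In the mean of the labelled knockdown libraries, TFAP2C at 46.8, PIWIL2 at 24.5 and KIT at 3.38 CPM per kb kept their places and PRDM1 came next at 1.81. PRDM1 thus stood above MAEL, at 0.729, DAZL, at 0.682, and NANOS3, at 0.591.

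The PIWI proteins share their fold with the argonautes, which carry microRNAs in all tissues. AGO1 was at 455 CPM in the control library and 696, 654 and 761 CPM in replicates 1, 2 and 3, and AGO3 was at 38.9, 77.8, 71.9 and 90.2 CPM. AGO2, the slicing argonaute, rose from 114 to 248, 241 and 305 CPM, and AGO4 was at 21.8, 64.5, 61.0 and 33.9 CPM. All 4 argonautes were above the control library in every labelled knockdown library, as were 30.1% of all genes tested. AGO2 alone passed the 2-fold rule, beside 3.65% of all genes that rose. The median log2 difference of the argonautes was 1.12, beside -0.02 over all genes tested. This median was 0.22 and no argonaute passed the rule after removal of trends on length and GC content. The other PIWI genes were scarce: PIWIL4 stood at 1.83, 1.70, 1.78 and 1.31 CPM, and PIWIL3, under the minimum level, at 1.29, 0.418, 0.436 and 0.256 CPM. Per kb of exon in the control library, PIWIL2 at 17.9 lay between AGO1 at 32.8 and AGO2 at 7.23.

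Of the other AP-2 factors, 2 were tested, and 1 rose, beside 3.65% of all genes. This was TFAP2A, a regulator of neural crest, skin and trophoblast genes. It went from 4.54 CPM to 15.1, 13.6 and 70.3 CPM, with a mean log2 difference of 2.41 ± 1.33 (SD, n = 3), and was highest in replicate 3, where TFAP2C was lowest. Per kb of exon, TFAP2A was at 0.549 beside 27.8 for TFAP2C in the control library, and at 8.5 beside 22.4 in replicate 3. TFAP2E was at 0.958, 1.24, 1.21 and 1.73 CPM. TFAP2B had 0, 2, 12 and 14 counts and TFAP2D 0, 2, 2 and 0 counts.

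**Figure D3:**
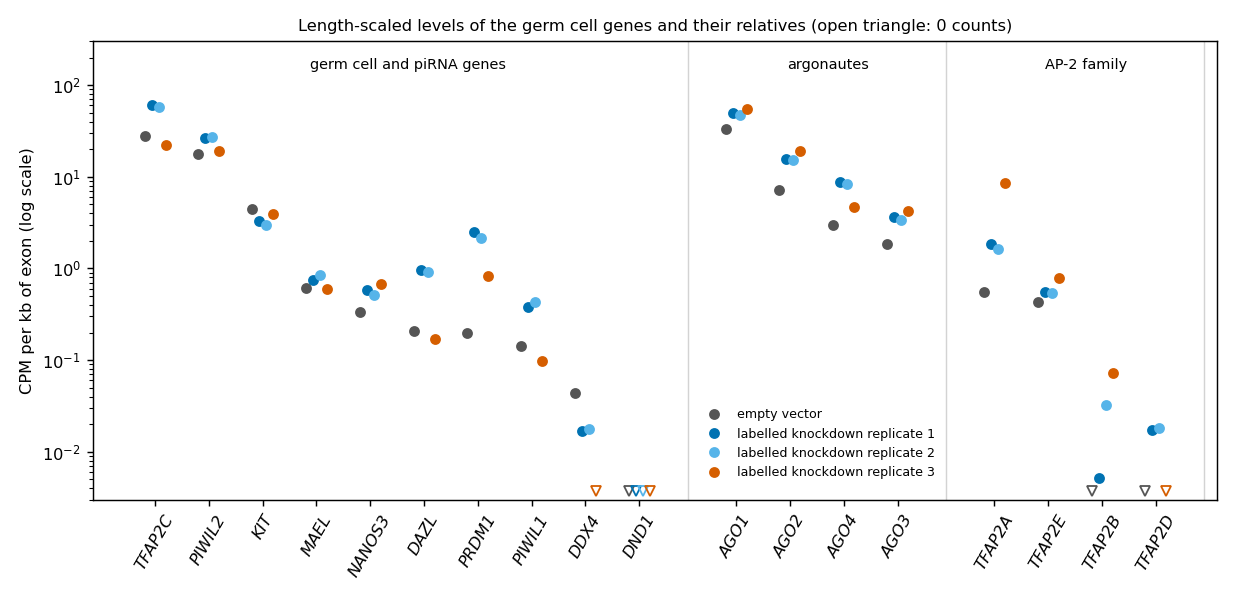
CPM per kb of exon, on a log axis, of the germ cell and piRNA genes, the argonautes and the other AP-2 genes in each library, ordered by the empty vector level; open triangles mark 0 counts and sit at an arbitrary height. TFAP2C and PIWIL2 lie with AGO1 and AGO2, while DAZL, PRDM1 and PIWIL1 lie at 0.142 to 0.207 in the control library.

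The other genes of these pathways were counted by the same rule, beside shares over all genes of 3.65% that rose and 2.72% that fell. Of 24 further piRNA pathway genes, 10 were tested, 1 rose, none fell, and the median log2 difference was 0.04. The riser was MYBL1, the transcription factor that drives piRNA genes in meiosis, at 6.83 CPM in the control library and 14.8, 14.1 and 14.1 CPM in replicates 1, 2 and 3. Its smallest log2 difference was 1.04, and it did not pass under upper quartile scaling or after removal of length and GC trends. The 3 most abundant were TDRD12, a tudor protein with a helicase domain, HENMT1, which methylates piRNA ends, and TEX15, a factor of piRNA-directed DNA methylation. TDRD12 was at 196, 216, 221 and 205 CPM, TEX15 at 39.7, 29.4, 29.1 and 29.9 CPM (past the rule downward after removal of length and GC trends), and HENMT1 at 29.8, 36.7, 37.8 and 17.8 CPM. TDRD5 and TDRKH, named after their values were seen, were lowest in replicate 3. TDRD5 was at 16.2, 13.9, 16 and 3.17 CPM, and TDRKH at 15.2, 9.38, 10.6 and 3.52 CPM. BTBD18, also named after its values were seen, was highest in replicate 3, at 1.58, 1.48, 1.26 and 3.68 CPM.

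Of 16 further early germ cell genes, 12 were tested, none rose and 1 fell, with a median of -0.26. The gene that fell was DPPA3 (STELLA), a maternal and primordial germ cell factor that guards DNA methylation, from 10.5 CPM to 0.964, 0.838 and 0.32 CPM. Its mean log2 difference was -3.94 ± 0.80 (SD, n = 3), and processed pseudogenes of DPPA3 make its counts uncertain. The most abundant genes of this list were LIN28A, a pluripotency and germ cell RNA-binding protein, at 2840, 3510, 3620 and 1910 CPM, ALPL, the tissue-nonspecific alkaline phosphatase used to stain germ cells, at 104, 67.9, 66.0 and 65.4 CPM, and PDPN, at 91.0, 89.2, 89.7 and 94.6 CPM. Of 24 meiosis genes, 10 were tested, none passed the rule, and the median was -0.06. The most abundant meiosis genes were YTHDC2 at 33.1, 57.7, 53.5 and 43.8 CPM, its partner MEIOC at 23.7, 34.6, 33.1 and 12.6 CPM, and the recombinase DMC1 at 11.4, 14.5, 16.9 and 7.39 CPM. The median of the 7 tested germ cell and piRNA genes was 0.62 over the 3 libraries. For replicates 1, 2 and 3 taken singly it came to 1.11, 1.06 and -0.16, beside 0.03, 0.05 and -0.15 over all genes tested. The value for replicate 3 thus lay close to that of all genes. The higher medians cannot be read against all genes, because DAZL and PIWIL1 reached the minimum level only through replicates 1 and 2.

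**Figure D4:**
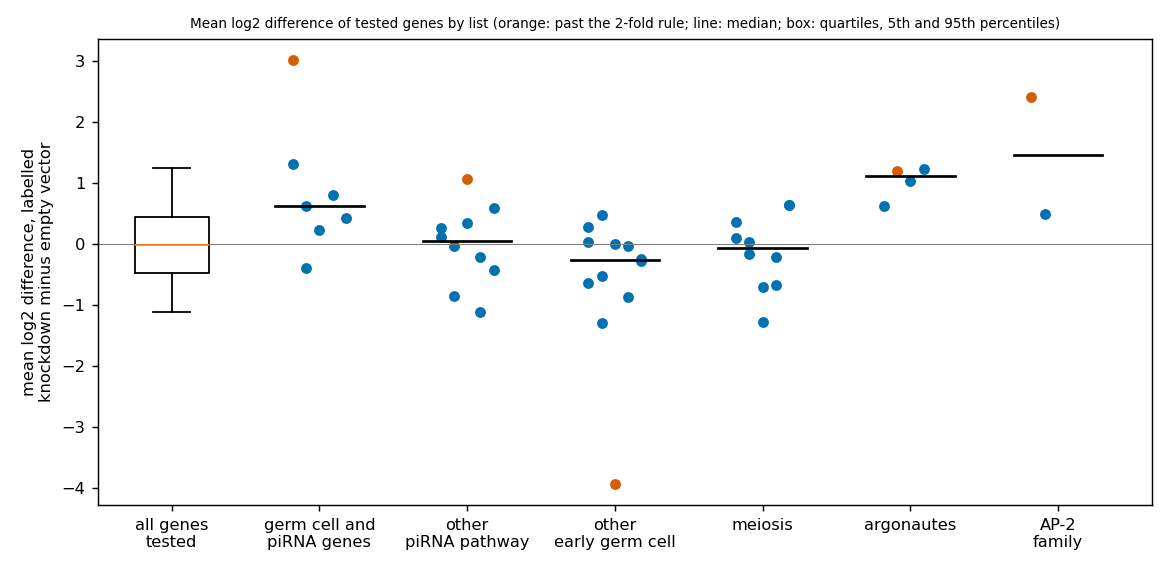
Mean log2 difference (labelled knockdown minus empty vector) of each tested gene by list, beside a box with the quartiles and the 5th and 95th percentiles of all 15880 genes; black lines are medians and orange points passed the 2-fold rule. The highest point among the germ cell and piRNA genes is PRDM1 at 3.02, the lowest point among early germ cell genes is DPPA3 at -3.94, and the medians of the piRNA pathway and meiosis lists, 0.04 and -0.06, lie close to that of all genes.

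Markers of other cell states were counted in the same way. Of 10 embryonal carcinoma markers, 1 fell and none rose, beside 2.72% of all genes tested that fell and 3.65% that rose. Their levels summed to 7010 CPM in the control library and 4160 to 7230 CPM in the labelled knockdown libraries. LIN28A was the largest part of each sum. It stood at 2840 CPM in the control library and 3510, 3620 and 1910 CPM in replicates 1, 2 and 3. The one that fell was DNMT3B, a de novo DNA methyltransferase, at 795, 340, 350 and 349 CPM. L1TD1 was at 472, 241, 239 and 227 CPM, SALL4 at 235, 300, 282 and 304 CPM, and TNFRSF8 at 22.3, 19.8, 17.0 and 21.4 CPM. In replicate 3, where TFAP2C, DAZL and PIWIL1 were lowest, NANOG was at 323 CPM against 502 in the control library, POU5F1 at 19.4 against 42.8, DPPA4 at 604 against 1400, TDGF1 at 138 against 420 and SOX2 at 259 against 279. In replicates 1 and 2 NANOG was at 820 and 817 CPM and SOX2 at 300 and 300 CPM, above the control library. The others lay below it there, POU5F1 at 35.9 and 38.5, DPPA4 at 1150 and 1240 and TDGF1 at 285 and 331 CPM.

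Of 10 neural markers, 8 were tested and 2 rose (beside 3.65% of all genes), with summed levels of 192 CPM in the control library and 323 to 369 CPM in the labelled knockdown libraries. PAX6, a factor of neural progenitors that had 0 CPM in the control library and so entered the rule only through the other libraries, was at 15.4, 13.1 and 2.95 CPM, and MAP2 went from 9.16 to 24.0, 22.8 and 34.5 CPM. NES, which made up most of the sum, was at 167, 291, 274 and 270 CPM, DCX at 11.7, 28.7, 27.5 and 11.5 CPM, and NEUROG2 and SOX1 had at most 0.305 CPM. STMN2 was at 0.333, 2.71, 2.38 and 0.512 CPM and ELAVL3 at 0.958, 4.5, 3.99 and 0.544 CPM, with the same high level in replicates 1 and 2. PAX6 thus shared with PRDM1 its high level in replicates 1 and 2 and lower level in replicate 3. Of 8 trophoblast and yolk sac markers, 4 were tested and none passed the rule, with summed levels of 30 CPM against 55.3 to 94.7 CPM. GATA3 was at 18.5, 38.2, 35.3 and 71.3 CPM and GATA4 at 2.37, 4.61, 4.14 and 11.3 CPM, both highest in replicate 3 as TFAP2A was. KRT7 was at 7.17, 11.4, 12.3 and 4.45 CPM, and CGB5 and, outside the control library, CGA were at 0. Of 8 mesenchymal markers, 7 were tested and 1 rose, beside 3.65% of all genes. This was PDGFRB, from 34.1 to 94.6, 86.6 and 73.6 CPM. The summed levels of the mesenchymal list were 1040 CPM against 802 to 1130 CPM. VIM was at 536, 483, 493 and 381 CPM, THY1 at 362, 382, 394 and 210 CPM and COL1A1 at 76.5, 109, 91.8 and 110 CPM, and DCN was at or near 0. The 8 seminoma markers, most of them the genes described here, summed to 202 CPM against 191 to 308 CPM. The part of these markers' cell states in the levels of PRDM1, TFAP2C, DAZL and PIWIL1 was not tested.

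The genes most like PIWIL2, the most abundant of the 10 by mean CPM, were sought among 14683 genes by the Euclidean distance between log2 CPM deviations over the 4 libraries. They were POGLUT3 (distance 0.00875), at 64.1, 96.3, 98.1 and 69.5 CPM, CD151 (0.0241), at 65.0, 99.1, 101 and 71.6 CPM, and DSCAML1 (0.0246), at 0.833, 1.28, 1.32 and 0.896 CPM. With 4 points this is a description of these libraries.

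Many germline genes start in CpG-dense DNA and are kept silent in somatic cells through DNA methylation and through repressors that bind E-box and E2F motifs. RefSeq promoter windows (GRCh38.p14), from 250 bases before to 50 after a start, were at hand for 8 of the 10 genes, in 13 windows. TFAP2C and PIWIL2 were not among them. The E-box CACGTG, which reads the same on both strands, occurred in windows of 3 of these genes (DND1, DAZL and MAEL), against 8.77% of 27305 genes and 7.26% of 35116 windows. The E2F motif GCGGGAA, or TTCCCGC on the other strand, occurred in none of the 8, against 7.82% of genes. The E-box sites are shown with their flanking bases, the motif in capitals, because DAZL was among the genes higher in replicates 1 and 2 while MAEL was not and DND1 had no counts. They lie at chr5:140673672-140673701 (minus strand) for DND1, chr3:16604927-16604956 (minus strand) for DAZL and chr1:166989057-166989086 (plus strand) for MAEL, with the motif 113, 154 and 211 bases before the start of the window's own transcript. For DAZL and MAEL this is a second, downstream start, and the window of the first start holds no E-box.
DND1: gcccgggcggcgCACGTGcagtggatacct
DAZL: tgcctcgccggcCACGTGcaagggccacgg
MAEL: ctccaggcctccCACGTGacaatgcctccg
A match is a description of the sequence and not a bound site.

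The CpG content of the start regions varied among the genes. The observed to expected CpG ratio was 0.65 and 0.463 for the PRDM1 windows, 0.749 for PIWIL1, 0.952 for KIT, 0.862 and 0.732 for both DAZL windows, 1.12 and 0.895 for both MAEL windows, 0.236, 0.973 and 0.132 for the NANOS3 windows, 0.615 for DND1 and 0.12 for DDX4, beside a median of 0.579 over all windows. Windows on either side of that median occurred both among the genes higher in replicates 1 and 2 and among the others. TFAP2C, also higher there, had no window, and whether CpG content is linked to the levels was not tested. The bases from 150 to 51 before the start are shown for PRDM1, PIWIL1 and KIT, CpG sites in capitals. PRDM1 is shown as the gene that rose in every library and PIWIL1 as one high in replicates 1 and 2. KIT is shown as one below the control library in replicates 1 and 2. These stretches hold 8, 8 and 14 CpG sites. They lie at chr6:106086186-106086285, chr12:130337737-130337836 and chr4:54657807-54657906, all on the plus strand.
PRDM1: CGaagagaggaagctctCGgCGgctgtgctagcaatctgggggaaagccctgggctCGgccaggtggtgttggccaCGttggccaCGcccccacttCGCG
PIWIL1: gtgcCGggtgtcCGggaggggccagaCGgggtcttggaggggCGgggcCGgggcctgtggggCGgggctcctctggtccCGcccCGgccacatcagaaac
KIT: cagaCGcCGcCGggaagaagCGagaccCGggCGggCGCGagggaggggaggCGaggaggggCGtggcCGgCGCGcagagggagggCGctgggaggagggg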

How the data were processed

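RNA-seq of 4 NT2 libraries was used. Per the labels' protocols, ribosomal RNA was depleted and strand-specific libraries were made by the dUTP method. The authors deposited raw counts per gene, 1 table per library. The submitters' processing notes name hg38, STAR 2.7.11b, featureCounts 2.0.6 and DESeq2. The annotation release and the strand setting of the counting are not given in the sources used here, so overlapping genes and near-identical copies have uncertain counts. The columns of counts carry, per the file headers, the names LacZ control and GKAP_KIF27 with a set number, which the labels do not use. GEO's record ties each table to a sample, and the sample's title gave its group.

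Between 65.2% and 68.0% of nonzero counts were even, so intervals (exact Poisson for a level, Clopper-Pearson for a ratio) were computed on counts divided by 2. Scaling was by TMM (edgeR 4.0.16, R 4.3.3) on genes kept by filterByExpr, with factors of 0.953, 0.99, 0.969 and 1.09 in the empty vector library and replicates 1, 2 and 3, and log2 CPM a prior count of 2. Calls were counted with edgeR's quasi-likelihood test, DESeq2 1.42.0 and limma 3.58.1 voom, with Benjamini-Hochberg adjustment at 0.05. Exon lengths and coordinates came from GENCODE 29 (GRCh38). Trends on length and GC content were removed by lowess with a span of 0.3. Both the 2-fold rule and this removal were first tested on simulated data. The simulated knockdown libraries were drawn independently, with the same dispersion for every gene. The real replicates 1 and 2 lay far closer to each other than to replicate 3, so the simulation does not show how the rule behaves here.

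The genes, the lists and the rule for naming were chosen with earlier results of these data known. Named were the 10 genes, HYDIN2 and HYDIN, the argonautes, the AP-2 genes, the embryonal carcinoma markers, of each other list the genes past the rule (at most 5) and the 3 most abundant, and the 3 genes most like the most abundant of the 10. Outside this rule, other listed genes were named after their values were seen, as were markers at or near 0. These genes were KITLG, PIWIL3, PIWIL4, TDRD5, TDRKH, BTBD18, GTSF1, TEX19, SYCE2, SYCP3, SOX17, STMN2 and ELAVL3. HYDIN was at 8.67, 8.06 and 4.26 CPM in replicates 1, 2 and 3, beside 5.62 CPM with the empty vector. The alternatives were other scalings, prior counts, level minimums and fold thresholds, trend removal and leaving out each labelled knockdown library.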

Additional observations from a re-analysis of the deposited data

How the results depend on the processing

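The mean log2 difference of each of the 9 genes with counts kept its sign under all 10 alternatives run for it. Each alternative kept replicate 1, replicate 2 or both, which lay close together, so the kept sign says little about replicate 3. In replicate 3 alone the main log2 difference was negative, against a positive mean, for TFAP2C (-0.31), DAZL (-0.28), PIWIL1 (-0.51) and MAEL (-0.04). The mean moved beyond its spread for NANOS3 and KIT after removal of length and GC trends, to 1.16 and -0.61, and for DDX4 with a prior count of 0.5, to -2.13. One alternative, averaging replicates 1 and 2 as 1, was chosen after seeing the data, and gave 0.39 for TFAP2C, 2.78 for PRDM1, 0.92 for DAZL and 0.48 for PIWIL1. The number of these genes past the rule upward was 1 to 4 when each labelled knockdown library was left out in turn, with 4 (TFAP2C, PRDM1, DAZL and PIWIL1) without replicate 3, and 2 (PRDM1 and DAZL) with a 2-fold rule on the mean. Over all genes, the 580 higher and 432 lower became 1605 and 1035 with a minimum of 0.1 CPM. With 5 CPM they were 377 and 254, and with no filter 2526 and 1810. A 1.5-fold rule gave 1590 and 1526, a rule on the mean 1356 and 1074, and trend removal 396 and 273. Leaving out 1 labelled knockdown library gave 615 to 1542 higher and 485 to 846 lower genes, with the highest numbers without replicate 3. Of the tests, DESeq2 called 253 genes where edgeR called 0. Total counts scaling moved the median over all genes in replicate 3 from -0.15 to 0.04. With a minimum of 0.1 CPM, PIWIL3, GTSF1 and TEX19 also passed the rule downward. Without replicate 3, SYCE2 passed upward and SYCP3 downward among the meiosis genes. No paired analysis was possible because a single control library, which carries no number, leaves nothing to pair. The ratios of NANOS3, DDX4 and MAEL all had counting intervals that include 1, as did those of DAZL, PIWIL1 and KIT in replicate 3. Such an interval cannot tell a lack of depth from a lack of difference.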
